A study of Homo sapiens with 6 samples.

Results

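Pregnancy-specific glycoprotein (PSG) transcripts were examined in 6 microarrays of an ovarian carcinoma line. The genes were PSG1, PSG2, PSG3, PSG4, PSG5, PSG6, PSG7, PSG9 and PSG11, 9 of the 19775 genes that had a probe set of their own. Their probe sets were all those whose platform annotation listed one of these symbols, 19 of 54613, of which 16 listed 1 gene and 3 listed 2 PSG genes. PSG8 and the pseudogene PSG10P had no probe set listed. The genes were chosen by their S116D minus S116A differences in these arrays, so the differences of PSG probe sets between the lines are given as a description. Counts of how many the fit of the whole table called stand beside the share over all probe sets, and nothing is read from them.

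The arrays compared 2 stably transfected derivatives of SKOV3.ip1, human ovarian cancer cells derived from the SKOV3 line. Cells of S116D expressed PEA-15, an adaptor with a death effector domain whose partners include ERK and FADD, as a phosphomimetic mutant in which aspartic acid replaced serine. Cells of S116A expressed a PEA-15 mutant that cannot be phosphorylated at this site because alanine replaced the serine. For S116D the titles name Ser116, the sample characteristics both Ser104 and Ser116, and the treatment text Ser16, so a double substitution is possible and the labels do not settle it. Both lines were grown in the same medium, and neither the promoter of the vector nor whether each line was a clone or a pool is given in the sources used here. Each line had 3 arrays. Nothing says that they came from separate cultures, so the spread between them may be technical. No untransfected or empty-vector array was analysed here.

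PSGs are secreted glycoproteins of the immunoglobulin superfamily, close relatives of the CEACAM adhesion molecules. The syncytiotrophoblast of the placenta makes them in large amounts, and they circulate in maternal blood through pregnancy. Members have been reported to bind integrins and proteoglycans and to release active TGF-β from its latent complex, and some tumours express them outside the placenta. The genes lie in 1 run on chromosome 19, in the RefSeq order PSG3, PSG8, PSG10P, PSG1, PSG6, PSG7, PSG11, PSG2, PSG5, PSG4 and PSG9. Their sequences are so alike that probes for one can read several. In the array's naming, a probe set ending in _x_at holds probes that may hybridise to other sequences, one ending in _s_at matches several transcripts that are often of a family, and one ending in _at was designed to match 1. A value of a PSG probe set may therefore be a reading of the family, with the named gene as its designed target. The ending _at does not ensure 1 target either, as 1568999_at lists both PSG6 and PSG4.

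The likeness extended to the promoters. The RefSeq promoter table (GRCh38.p14, 250 bases before to 50 after the start) held 3 of the 9 genes, PSG3, PSG4 and PSG5. PSG3 and PSG5, each with 1 probe set of its own that differed between the lines by over 1 on the log2 scale, are shown 5′ to 3′ on the minus strand, at chr19:42740432-42740731 for PSG3 and chr19:43186487-43186786 for PSG5. Capitals mark a GT repeat and the GC box or CACCC box.
PSG3: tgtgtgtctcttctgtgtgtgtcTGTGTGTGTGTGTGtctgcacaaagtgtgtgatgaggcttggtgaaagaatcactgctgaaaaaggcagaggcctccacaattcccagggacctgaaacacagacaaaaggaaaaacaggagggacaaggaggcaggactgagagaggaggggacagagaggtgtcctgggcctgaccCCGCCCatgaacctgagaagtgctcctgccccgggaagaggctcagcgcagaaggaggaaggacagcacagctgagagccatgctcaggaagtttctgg
PSG5: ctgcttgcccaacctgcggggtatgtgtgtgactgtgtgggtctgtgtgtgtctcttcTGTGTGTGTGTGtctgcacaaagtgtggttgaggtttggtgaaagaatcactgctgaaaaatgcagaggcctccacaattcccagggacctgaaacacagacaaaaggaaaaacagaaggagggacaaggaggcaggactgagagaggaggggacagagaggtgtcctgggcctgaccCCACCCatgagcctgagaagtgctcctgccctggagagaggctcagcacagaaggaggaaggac
Local alignment of these windows paired 264 bases, of which 252 (95.5%) were identical. PSG4 was 94.5% identical to PSG3 over 293 bases and 96.5% identical to PSG5 over 257 bases. PSG3 and PSG4 held a GC box (GGGCGG or CCGCCC), at -49 and -44 from the start, a motif of 45.0% of all 35116 promoters of this length. PSG5 held none but had a CACCC box (CCACCC or GGGTGG) at -14, a motif of 34.3% of promoters. This box lay at the same place of the shared sequence as the GC box of PSG3, after the bases gggcctgacc in each window. There CCACCC of PSG5 and CCGCCC of PSG3 differed by 1 base. The positions -49 and -14 are counted from each gene's own annotated start, so they do not mark separate sites. GC and CACCC boxes are the kind of sequence that SP and Krüppel-like factors bind. The GT repeat (TGTGTGTGTG or its reverse complement) was in all 3 windows, against 1.1% of all promoters. No TATA box (TATAAA), nuclear receptor half-site (AGGTCA) or ETS site (CCGGAAG), present in 11.5%, 13.8% and 10.3% of promoters, was found on either strand of the 3 windows. No promoter sequence is shown for PSG1 and PSG11.

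Among probe sets of 1 gene, the pair with the largest differences belonged to PSG1, the member best studied as an activator of latent TGF-β. On probe set 210196_s_at its log2 signals were 8.34, 8.42 and 8.09 in S116D, against 6.63, 6.56 and 6.08 in S116A. The mean signal of this probe set was at percentile 38.4 of the table, the lowest of the 19 PSG probe sets. The 3 S116D arrays all stood well above the 3 S116A arrays, and the lowest S116A value was that of S116A 3. The means were 8.28 ± 0.17 and 6.42 ± 0.30 (SD, n = 3 each), a difference of 1.86 ± 0.15 (SE) or 3.63-fold. On probe set 210195_s_at PSG1 read 9.059, 9.116 and 8.957 in S116D, against 7.845, 8.151 and 7.845 in S116A. Again the lines did not overlap, at a difference of 1.10 ± 0.10. The third PSG1 probe set, 208257_x_at, read 10.69, 10.88 and 10.59 in S116D, against 10.05, 10.22 and 10.06 in S116A. It put the lines apart by 0.61 ± 0.10, so the 3 readings of PSG1 shared a direction and spanned 0.61 to 1.86 in size. Levels of different probe sets are not comparable with each other, and only differences are compared between them.

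PSG3 and PSG5 followed in size. PSG3, on 211741_x_at, read 9.54, 9.62 and 9.65 in S116D, against 8.74, 8.58 and 8.35 in S116A. The lines were apart by 1.05 ± 0.10, or 2.07-fold. PSG5, the gene whose promoter has been used most in studies of PSG transcription, read 10.16, 9.90 and 9.71 in S116D, against 9.005, 9.06 and 8.623 in S116A on 204830_x_at. All S116D values lay above all S116A values, with a difference of 1.03 ± 0.15, and the spread within each line (SD 0.23 and 0.24) was among the widest of the family. Its other probe set, 239583_x_at, read 8.54, 8.56 and 8.56 in S116D, against 8.30, 8.34 and 8.62 in S116A. There the S116A 3 array stood above every S116D array, and the difference was 0.13 (95% interval -0.0824 to 0.351).

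**Figure D1:**
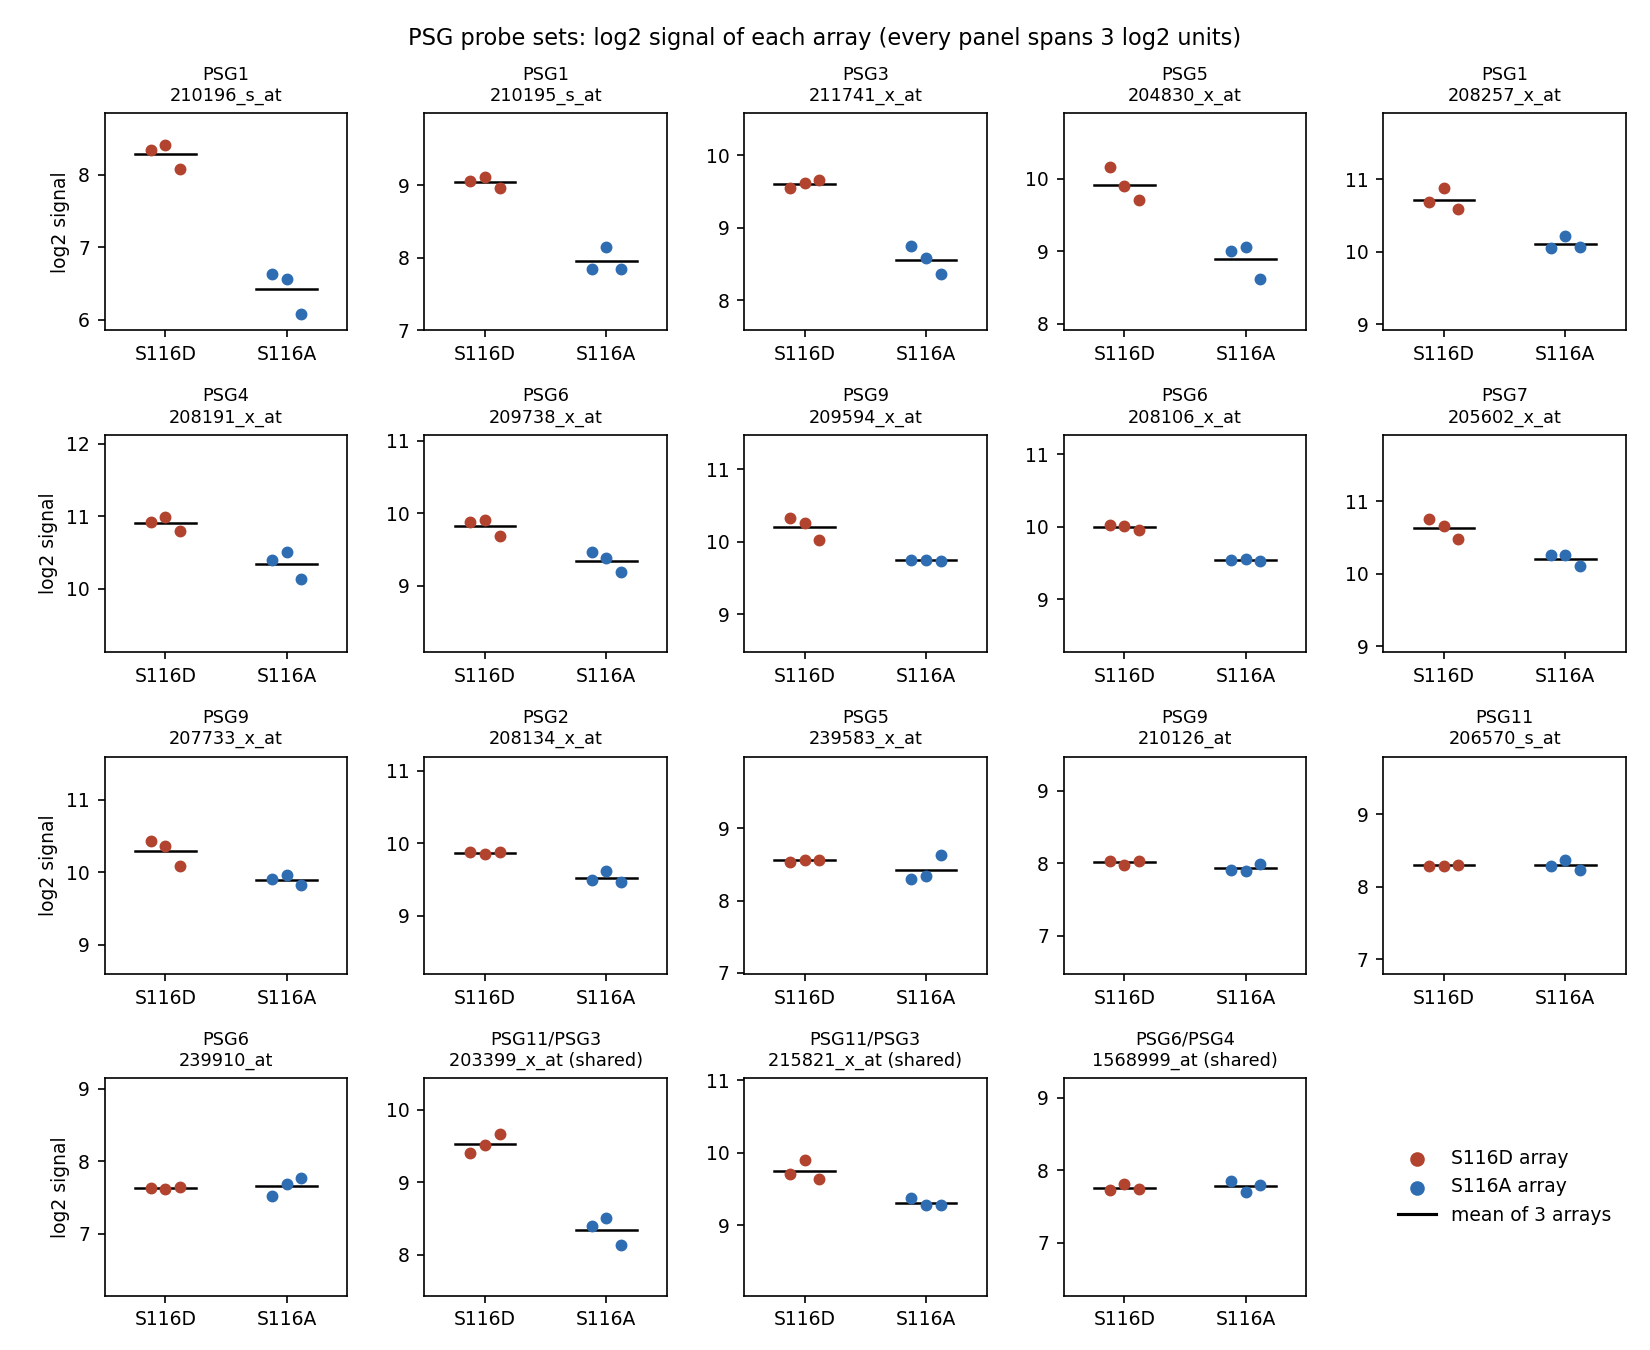
Log2 signal (vertical axis) of each array for the 19 PSG probe sets, with S116D left of S116A in each panel. Points are arrays, bars are the means of 3 arrays, and every panel spans the same range of 3 log2 units. The lines are apart in 14 panels and overlap in 5. Over the whole table they did not overlap for 24% of probe sets.

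PSG4, PSG6, PSG7, PSG9 and PSG2 gave smaller differences, all on probe sets ending in _x_at. PSG4 read 10.92, 10.99 and 10.79 in S116D, against 10.40, 10.51 and 10.13 in S116A, a difference of 0.55 ± 0.11. PSG7 read 10.75, 10.66 and 10.48 in S116D, against 10.25, 10.25 and 10.10 in S116A, a difference of 0.43 ± 0.09. In both genes the highest S116A array stayed below the lowest S116D array. PSG2 had the smallest difference among probe sets whose lines did not overlap, at 0.34 ± 0.08. It read 9.875, 9.855 and 9.872 in S116D, against 9.495, 9.614 and 9.46 in S116A. Its S116D arrays were nearly identical, and its S116A arrays were more spread.

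PSG6 and PSG9 had 3 probe sets each, and these did not agree in size. PSG6 differed by 0.47 ± 0.10 on 209738_x_at, where S116D read 9.87, 9.90 and 9.69, against 9.46, 9.38 and 9.19 in S116A. It differed by 0.46 ± 0.07 on 208106_x_at, where S116D read 10.02, 10.01 and 9.96, against 9.54, 9.55 and 9.52 in S116A. The SD within each line was 0.03 and 0.02 there. On 239910_at, a probe set of the unshared type, PSG6 read 7.64, 7.61 and 7.65 in S116D, against 7.52, 7.69 and 7.77 in S116A, a difference of -0.025 (95% interval -0.201 to 0.15). The S116D arrays lay within the S116A range there. PSG9, reported in gastrointestinal tumours, behaved likewise. It differed by 0.46 ± 0.09 on 209594_x_at, with 10.33, 10.26 and 10.03 in S116D, against 9.75, 9.75 and 9.74 in S116A. On 207733_x_at it differed by 0.39 ± 0.10, with 10.43, 10.37 and 10.09 in S116D, against 9.91, 9.97 and 9.83 in S116A. On 210126_at, of the unshared type, it read 8.03, 7.98 and 8.03 in S116D, against 7.90, 7.89 and 7.99 in S116A. That difference was 0.083 (95% interval -0.0633 to 0.229) and the lines overlapped.

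PSG11 had 1 probe set of its own, 206570_s_at, and it showed no separation. It read 8.293, 8.293 and 8.304 in S116D, against 8.293, 8.37 and 8.235 in S116A, a difference of -0.0027 (95% interval -0.156 to 0.151). The S116D arrays were in the middle of the S116A range.

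Of the shared probe sets, both that listed PSG11 with PSG3 were higher in S116D. Probe set 203399_x_at read 9.411, 9.51 and 9.673 in S116D, against 8.398, 8.504 and 8.13 in S116A, a difference of 1.19 ± 0.11. Probe set 215821_x_at read 9.70, 9.90 and 9.64 in S116D, against 9.39, 9.28 and 9.29 in S116A, a difference of 0.43 ± 0.09. Neither can assign its signal to PSG11 or PSG3. The shared probe set of PSG6 and PSG4, 1568999_at, read 7.74, 7.81 and 7.74 in S116D, against 7.85, 7.70 and 7.80 in S116A. Its lines overlapped, with a difference of -0.023 (95% interval -0.174 to 0.129).

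**Figure D2:**
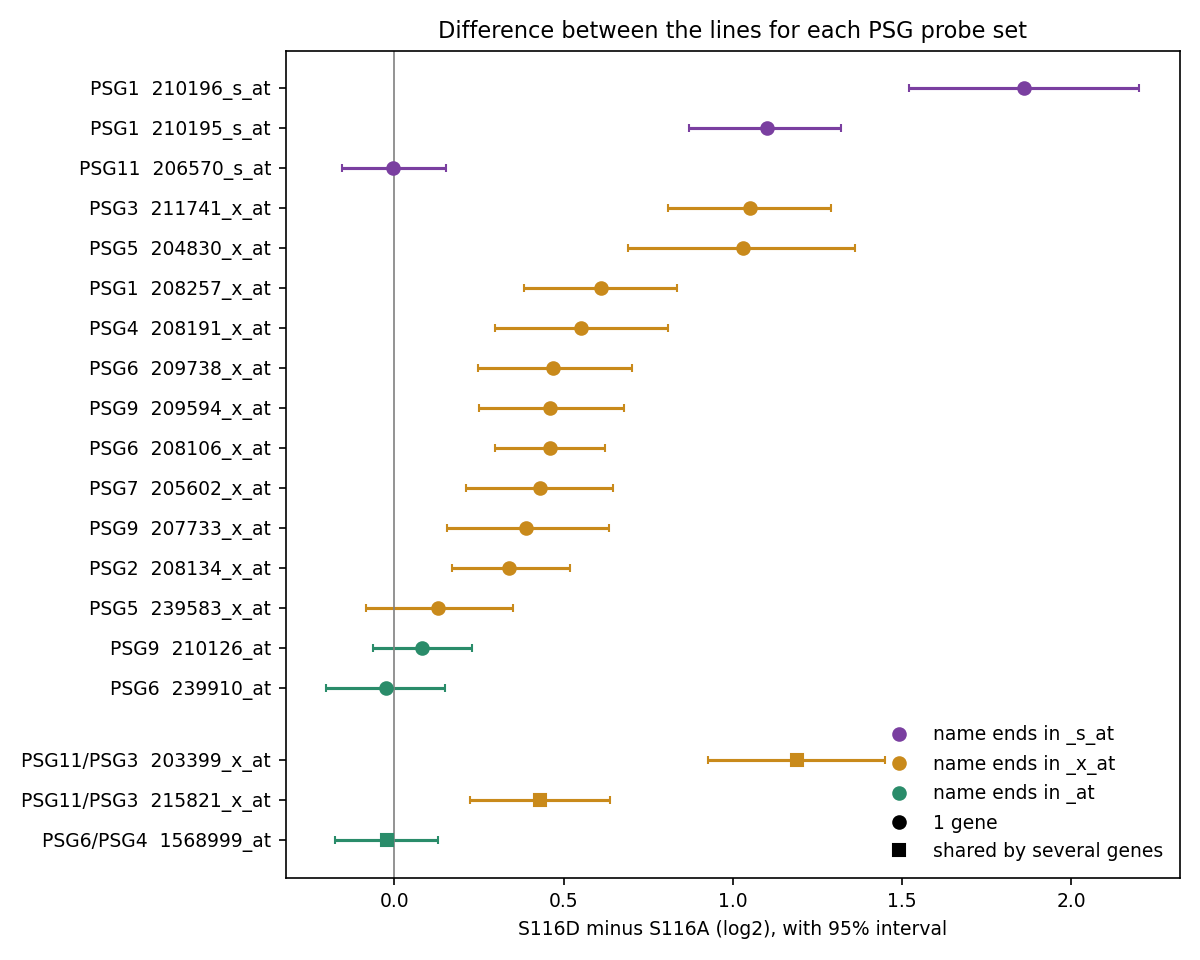
Difference between the lines (S116D minus S116A, log2, horizontal axis) with its 95% interval for the 19 PSG probe sets, 16 of 1 gene (circles) above 3 shared by several genes (squares), coloured by the ending of the probe set's name. The _x_at probe sets of 1 gene run from 0.13 to 1.05, while the 3 probe sets ending in _at, 2 of 1 gene and 1 shared, lie between -0.025 and 0.083.

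Taken over the 16 probe sets of 1 gene, the median difference was 0.46 and the range -0.025 to 1.86, beside a median of 0.00298 over all 54613 probe sets. The lines did not overlap for 12 of the 16, all higher in S116D. Over the whole table the lines did not overlap for 24% of probe sets, 12.5% in that direction. A difference of at least 1 was found for 4 of the 16, against 0.604% of all probe sets. A limma fit of the whole table, with Benjamini-Hochberg adjusted p under 0.05, called 8.55% of all probe sets, 4.36% as higher and 4.19% as lower in S116D. It called 11 of the 16 PSG probe sets, all higher, and 2 of the 3 shared ones. By ending, the fit called 9 of 11 _x_at, 2 of 3 _s_at and 0 of 2 _at probe sets of 1 gene, and the last had no unadjusted p under 0.05 either. Among all probe sets of the table, it called 3.99% of those ending in _x_at as higher in S116D, 6.71% of those ending in _s_at and 3.73% of those ending in _at. Without S116D 2 the PSG count was 6, and without S116A 1 it was 7. The probe sets lost in either case were among those of PSG7, PSG2, PSG4, PSG9 and PSG6 ending in _x_at. The count for the shared probe sets was 1 without S116A 1, S116A 2, S116A 3 or S116D 2.

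Each array was also read over the 16 probe sets together. These can read the same transcripts, so counts over them are not counts of separate genes. Averaged over the 16 probe sets as a difference from the S116A mean, the S116D arrays stood at 0.603, 0.599 and 0.475 and the S116A arrays at 0.0156, 0.0653 and -0.0809. S116D 3 was the lowest S116D array in 10 of the 16 probe sets, against 31% of all probe sets, and S116A 3 the lowest S116A array in 11 of 16, against 32.1%. The first principal component of the whole table (61.9% of the variance) separated the lines, and the second (20.3%) set S116D 1, S116A 1 and S116A 2 apart from S116D 2, S116D 3 and S116A 3, a grouping that no label names. The first set holds 1 array of S116D and 2 of S116A, and the second 2 of S116D and 1 of S116A. Within the first the median PSG difference was 0.48, with 15 of 16 probe sets higher in S116D. Within the second it was 0.47, with 14 of 16. Both read again the differences by which the genes were chosen. For the 12 probe sets whose lines did not overlap the direction was fixed in advance. PSG1 on 210196_s_at differed by 1.75 and 2.17 in the 2 sets. Array medians lay between 7.862 and 7.893, and PEA15, the transfected gene, differed by -0.19 and -0.061 on its 2 probe sets (limma adjusted p 0.20 and 0.82), and whether these read the vector's transcript is not known.

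Of the 20 measured genes nearest to the PSG run, 10 on each side in RefSeq order, 2 rose, 1 fell and 17 did not pass the limma test, beside 11% of all genes called, 6.13% higher and 4.82% lower. Their median difference was -0.002665, beside 0.0064 for all genes. CD177, a neutrophil surface glycoprotein and the next measured gene beyond PSG9, fell to 8.35 ± 0.06 in S116D, against 8.76 ± 0.03 in S116A (SD, n = 3 each, limma adjusted p = 0.0082). On the PSG3 side, PAFAH1B3, a catalytic subunit of a platelet-activating factor acetylhydrolase, rose by 0.40 ± 0.08 (SE, limma adjusted p = 0.015), and CNFN, the cornified envelope protein cornifelin, rose by 0.29 ± 0.07 (limma adjusted p = 0.040). Their calls depended on single arrays. PAFAH1B3 was lost without S116A 1, S116D 2 or S116D 3 (adjusted p 0.064 to 0.071), and CNFN without any array but S116D 2 (0.053 to 0.14) or without the intensity trend (0.053). Among the brightest neighbours that did not pass, ETHE1, a mitochondrial sulfur dioxygenase, differed by 0.27 (limma adjusted p = 0.087), IRGQ by 0.068 (0.80) and XRCC1, a DNA repair scaffold, by -0.15 (0.71). ETHE1 passed with the replicate number as a block (0.043) and with a block for the array sets of the second component, chosen after seeing the data (0.031).

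CEACAM genes are the nearest relatives of the family. Of 9 measured, limma called 0, beside 11% of all genes, and 1 had an unadjusted p under 0.05. With 9 genes, a count of 0 is close to that share. Their differences ran from -0.03 to 0.15, with a median of 0.02156. CEACAM8, the measured gene next to PSG3, read 5.15, 5.34 and 5.15 in S116D, against 5.04, 5.07 and 5.08 in S116A. Its lines did not overlap, but its signal was among the dimmest of the table (limma adjusted p = 0.20), and it is named after its values were seen. CEACAM1, next in order, differed by -0.015 (limma adjusted p = 0.96) and was also picked afterwards. CEACAM19 (0.10), CEACAM5 (0.032) and CEACAM3 (0.0059), the brightest of the list, had limma adjusted p of 0.63, 0.90 and 0.98.

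**Figure D3:**
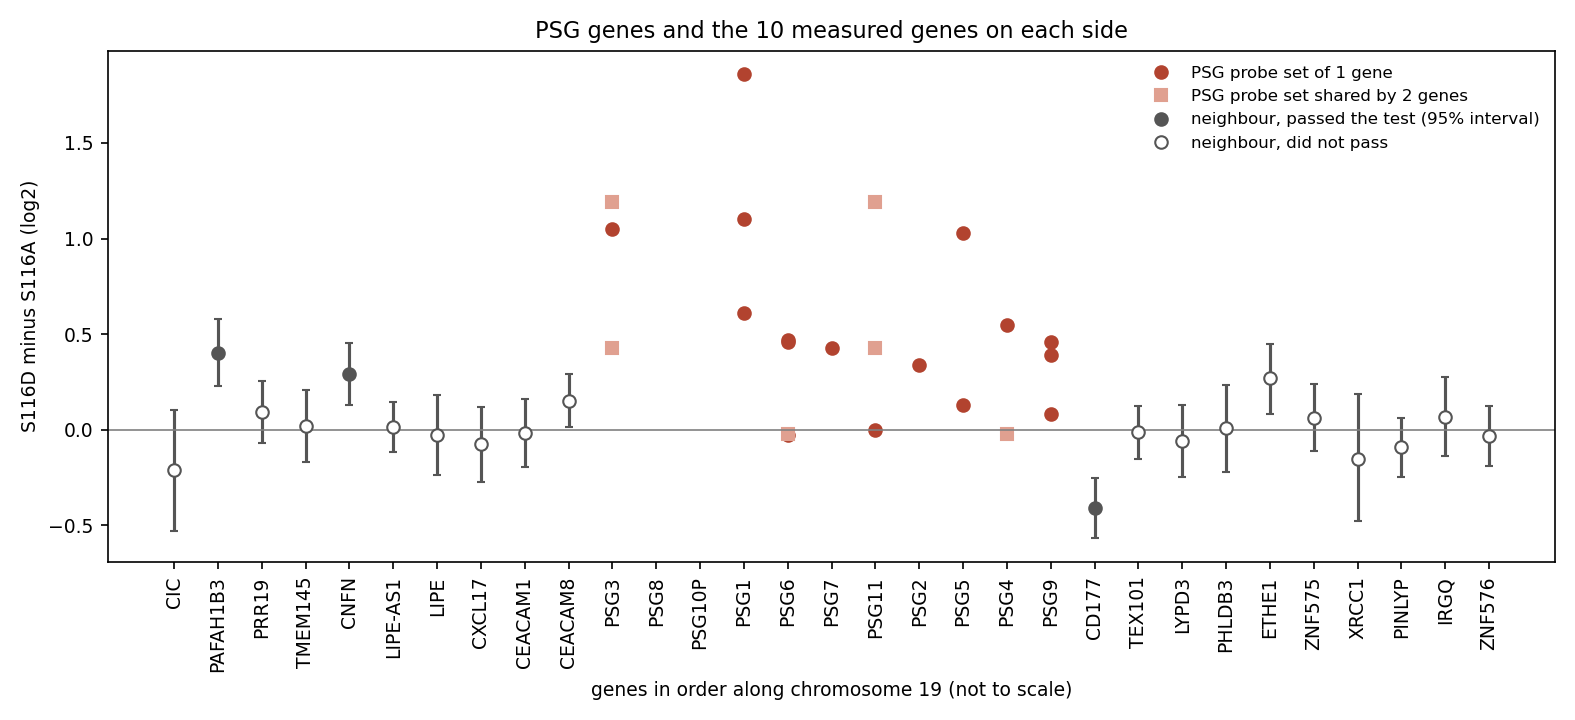
Difference between the lines (S116D minus S116A, log2, vertical axis) for the PSG probe sets and the 10 measured genes on each side, in gene order along chromosome 19 and not to scale. Shared PSG probe sets appear under each of their genes, PSG8 and PSG10P have none, and bars on the neighbours are 95% intervals. PSG1 reaches 1.86, while the neighbours lie between -0.41 and 0.40.

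Other genes of the placenta were called about as often as all genes. Of 33 measured syncytiotrophoblast and placental genes 2 rose, 1 fell and 30 did not pass, beside 11% of all genes called, with a median difference of -0.00509. HLA-G, the class I molecule of invasive trophoblast, rose by 1.03 ± 0.18 (SE, limma adjusted p = 0.0097), with 12.33, 11.79 and 11.63 in S116D, against 11.02, 10.99 and 10.66 in S116A. Its probe set ends in _x_at, and probes of this gene can read other class I genes. TFPI2, a protease inhibitor abundant in placenta, rose by 0.46 ± 0.06 (limma adjusted p = 0.0034), on 1 of its 2 probe sets. PHLDA2, an imprinted gene that limits placental growth, fell by 0.89 on the log2 scale, to 11.47 ± 0.04 in S116D, against 12.36 ± 0.14 in S116A (limma adjusted p = 6.7e-04), on 1 of its 3 probe sets. The brightest genes of the list without a call were PLAC8 (-0.29), the proteoglycan SDC1 (0.18) and the growth factor PGF (-0.036), at limma adjusted p of 0.28, 0.65 and 0.90. PLAC8 passed with the replicate number as a block (0.027), and SDC1 with a block for the array sets of the second component (0.0057). The hormone subunit gene CGA (-0.013), placental lactogen CSH1 (0.00015), aromatase CYP19A1 (0.02) and GCM1, a syncytial transcription factor (0.015), were picked afterwards as widely used markers. Their limma adjusted p-values were 0.95 or above. Averaged over the 33 genes, the arrays read 8.373 to 8.422 in S116D and 8.372 to 8.416 in S116A.

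Among 19 measured trophoblast transcription factors 2 fell, none rose and 17 did not pass, a share close to the 11% of all genes called. VGLL3, a TEAD cofactor, fell by 2.05 on the log2 scale, with 8.81, 8.79 and 8.54 in S116D, against 10.93, 10.72 and 10.64 in S116A (limma adjusted p = 2.9e-05). PPARG, a nuclear receptor needed for trophoblast differentiation, fell by 0.99, with 8.997, 8.982 and 8.893 in S116D, against 10.02, 9.95 and 9.87 in S116A (limma adjusted p = 2.1e-04). For both genes the lines were apart by several times their spread. TFAP2A (-0.29), OVOL1 (-0.13) and TEAD4 (-0.075), the brightest without a call, had limma adjusted p of 0.17, 0.47 and 0.72, and TFAP2A passed with array weights (0.037).

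Transcription factors reported to act on PSG promoters were measured in full, 6 of 6, and 1 fell, beside 4.82% of all genes called lower. Their median difference was -0.2692, beside 0.0064 for all genes, and 1 of the 6 had a positive difference. An unadjusted limma p under 0.05 was found for 3. KLF4, a Krüppel-like factor, read 8.28, 8.67 and 8.38 in S116D, against 9.03, 9.33 and 8.91 in S116A. The lines did not overlap, at a difference of -0.65 ± 0.13 (SE, limma adjusted p = 0.021), on 1 of its 2 probe sets. The call was lost without S116A 1, S116A 2 or S116D 3, at adjusted p of 0.060 to 0.082. KLF6, first described as a protein that binds the PSG5 core promoter, read 11.28, 11.88 and 11.67 in S116D, against 11.81, 12.22 and 12.12 in S116A. Its lines overlapped, and the difference of -0.44 ± 0.16 did not pass (limma adjusted p = 0.16). GABPA, an ETS factor, differed by -0.29 ± 0.08 (limma adjusted p = 0.061). SP3, a zinc finger factor of GC boxes, differed by 0.11 ± 0.09 (0.62). With the replicate number as a block 3 of the 6 were called, KLF6 (adjusted p = 0.0044) and GABPA (0.042) besides KLF4. That fit also called more of the whole table, 7340 of 54613 probe sets, against 4672 in the main fit.

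Of 15 measured genes of reported PSG binding partners 2 fell, none rose and 13 did not pass, near the 11% of all genes called. Their median difference was -0.1377. With the replicate number as a block 5 were called, but that fit called 7340 of all 54613 probe sets, against 4672 in the main fit. TGFB2, a TGF-β ligand, fell to 8.76 ± 0.03 in S116D, against 9.29 ± 0.16 in S116A (SD, n = 3 each, limma adjusted p = 0.0093), on 1 of its 5 probe sets. GPC1, a heparan sulfate proteoglycan of the cell surface, fell by 0.71 on the log2 scale (limma adjusted p = 0.026), on 1 of its 2 probe sets. Its call was lost without S116A 1, S116A 2, S116D 2 or S116D 3 (adjusted p 0.083 to 0.10). ITGB1, the β subunit of the integrin that binds PSG1, was the brightest of the list and differed by 0.021 (limma adjusted p = 0.90). The tetraspanin CD81 differed by -0.17 (0.68), and the galectin LGALS1 by 0.51 (0.17). LGALS1 passed as higher with the replicate number as a block (adjusted p = 0.0039), with a block for the array sets (0.013) and with array weights (0.032). TGFB1, the ligand whose latent form PSG1 activates, was picked afterwards. It read 8.537, 7.7 and 7.734 in S116D, against 8.247, 8.003 and 7.696 in S116A, where the S116D 1 array stood above all others and the lines overlapped (limma adjusted p = 0.99).

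The TGF-β pathway was called in both directions. Of 29 measured ligands, receptors and response genes 4 rose, 5 fell and 20 did not pass, beside 6.13% of all genes called higher and 4.82% lower, with a median difference of -0.003833. TAGLN, an actin-binding protein induced by TGF-β, rose by 1.13 ± 0.14 (SE, limma adjusted p = 0.0019), and ID2, an inhibitor of helix-loop-helix factors, rose by 0.97 ± 0.12 (0.0021). TGFBI, a matrix protein named for its induction by TGF-β, fell by 1.56 on the log2 scale (limma adjusted p = 4.0e-04), and SMAD3, a signal transducer of the pathway, fell by 0.93 (0.0029) on 1 of its 4 probe sets. SMAD2 (-0.13), ID1 (0.0074) and the receptor gene TGFBR1 (-0.0038), the brightest without a call, had limma adjusted p of 0.40, 0.99 and 0.99.

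Genes of DNA methylation and histone silencing, TET1, TET2 and TET3 among them, were included because PSG genes are silent in most tissues. Of 17 measured, DNMT3B, a DNA methyltransferase, rose and 16 did not pass, beside 11% of all genes called. DNMT3B read 10.93, 10.36 and 10.41 in S116D, against 9.99, 9.97 and 9.54 in S116A, a difference of 0.74 ± 0.18 (SE, limma adjusted p = 0.037). Leaving out any of the 6 arrays ended this call, at adjusted p of 0.054 to 0.078. HDAC2 (-0.26), HDAC1 (0.13) and SUZ12 (0.12) had limma adjusted p of 0.11, 0.36 and 0.42, and HDAC2 passed with the replicate number as a block (0.027).

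**Figure D4:**
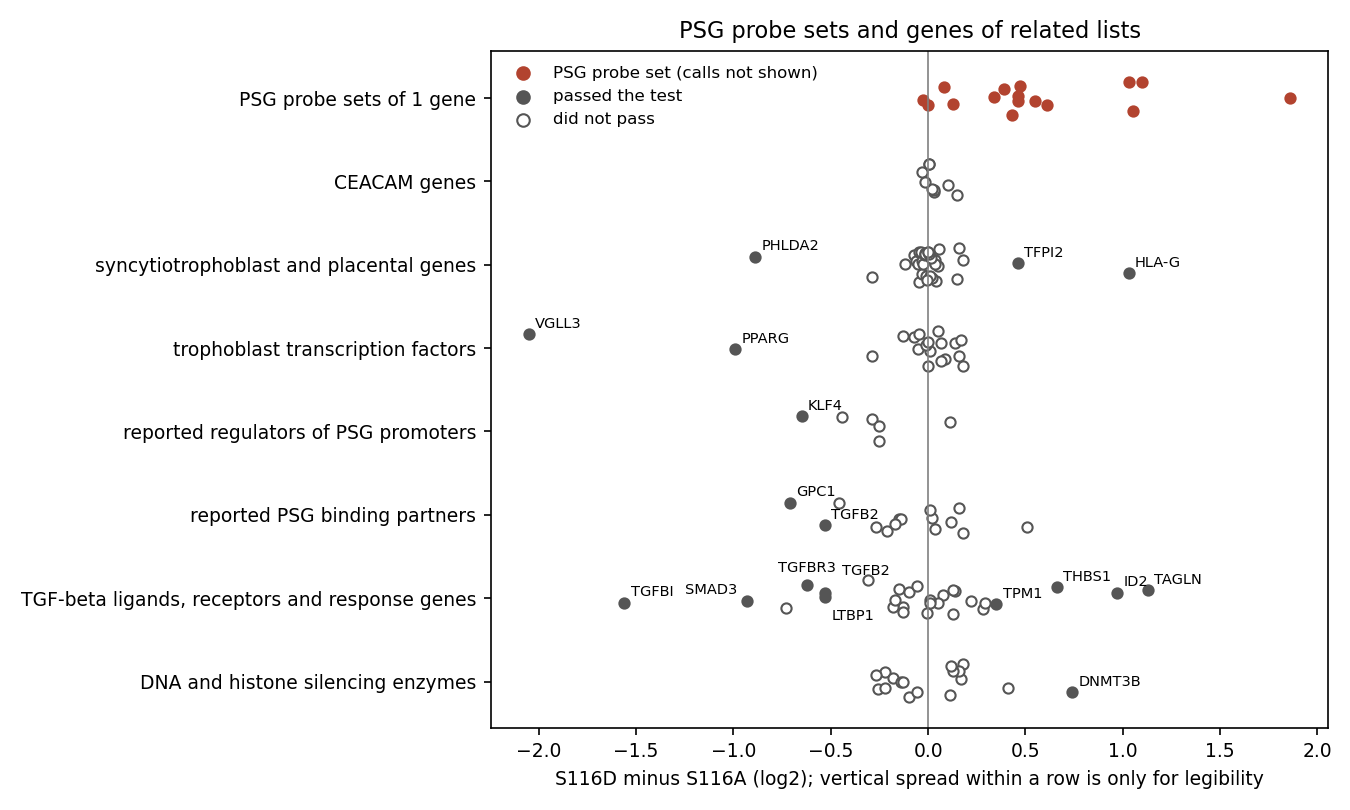
Difference between the lines (S116D minus S116A, log2, horizontal axis) for the 16 PSG probe sets of 1 gene (red, all drawn alike, whether called or not) and for the measured genes of 7 related lists, each on its brightest probe set. Filled grey points passed the limma test and are named, open points did not. The 9 CEACAM genes lie between -0.03 and 0.15.

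The label of ovarian cancer cells was checked against markers. PAX8, the transcription factor that marks ovarian carcinoma, read 12.82 ± 0.06 in S116D and 12.77 ± 0.12 in S116A, and 11 of 13 epithelial ovarian carcinoma markers lay above the median signal. So did 4 of 8 leukocyte, 5 of 10 fibroblast, 3 of 7 endothelial and 19 of 33 placental genes. MUC16, which encodes CA125, was dim, at 6.59 ± 0.04 in S116D and 6.72 ± 0.06 in S116A. Averaged over the 13 markers, the arrays read 10.61 to 10.85 in S116D and 10.94 to 11.18 in S116A, with 5 markers lower and 1 higher by limma, beside 4.82% and 6.13% of all genes. The lower ones were KRT19 (-2.26), KRT7 (-1.56), EPCAM (-0.90), KRT18 (-0.70) and KRT8 (-0.39), and the higher one was FOLR1 (0.72). KRT19 and FOLR1 were called on 1 of their 2 probe sets each and KRT7 on 2 of 4, while EPCAM, KRT18 and KRT8 had 1 each. On the brightest probe sets the level of these markers was therefore not equal in the lines. Markers of leukocytes (0 of 8 called, 0 with an unadjusted p under 0.05) and fibroblasts (0 of 10 called by limma, 1 unadjusted) did not pass, counts to be set beside 11% of all genes called. Of 7 endothelial markers KDR fell (-0.43 ± 0.06, SE, limma adjusted p = 0.0036), with its mean signal at percentile 14.3 of the table. The part of these markers in the PSG values was not tested.

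The genes most alike in pattern to the mean of the 16 PSG probe sets over the 6 arrays were NAP1L2 (Pearson r = 0.9982), DOCK11 (0.9974), MYD88 (0.9967), PCDHB2 (0.9962) and NUDT14 (0.9961). Since the arrays fall into 2 lines, r is high for any gene that separates them in this direction, and 113 of 19766 genes had an r of at least 0.98. MYD88, an adaptor of Toll-like receptors, read 10.43, 10.31 and 10.15 in S116D, against 9.21, 9.26 and 9.08 in S116A. DOCK11, a guanine nucleotide exchange factor, read 9.95, 9.86 and 9.74 in S116D, against 9.01, 9.04 and 8.80 in S116A. Both shared with the PSG mean that S116D 3 and S116A 3 were the lowest arrays of their lines. This follows largely from choosing them by r over these same arrays, and nothing is read from it.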

How the data were processed

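The values are log2 signals of probe sets on Affymetrix HG-U133 Plus arrays, as deposited by the authors; per the submitters' processing notes MAS5 and RMA were used, without saying for what. They were taken as log2 because all lay between 4.336 and 15.33. Array number, 3 per line, limits precision. The 62 control probe sets were left out. Probe sets were named from the platform annotation, with symbols updated through RefSeq (GRCh38.p14); 41091 listed 1 gene and 1801 several. All 54613 probe sets were fitted with limma 3.58.1 in R 4.3.3 (intensity trend, S116D minus S116A, no covariate). P-values were adjusted by Benjamini-Hochberg over all of them, calls had an adjusted p under 0.05, and the fit was checked on simulated data. Standard errors and 95% intervals are the moderated ones of limma, and fold is 2 to the power of the log2 difference. Listed genes were read on their brightest probe set of 1 gene. In each list and among the neighbours, up to 4 called genes by adjusted p and the 3 brightest not called are named, except in the marker lists. Members and lists were chosen with earlier results of these data known. Promoters came from RefSeq and were aligned with Biopython 1.88. The fit was repeated on quantile-normalized and on median-centred values, above the median signal only, without trend, with the replicate number as a block, with array weights, without each array, without _x_at probe sets, and with listed genes read as the median over all their probe sets.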

Additional observations from a re-analysis of the deposited data

How the results depend on the processing

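The PSG probe sets whose lines did not overlap kept their direction in every alternative that held them. Leaving out or reweighting arrays cannot turn such a difference, so for most alternatives this was fixed in advance. No PSG difference moved by more than its spread between arrays. The median over the probe sets of 1 gene was 0.42 to 0.52, and over the shared ones 0.35 to 0.48, when single arrays were left out. Counts of calls then ran from 6 to 11 of 16 and from 1 to 2 of 3, and over the whole table from 2608 to 4674. Without _x_at probe sets 5 of 1 gene were left, with 2 called and a median of 0.083, and 1 shared one, with a difference of -0.023 and 0 called. Among probe sets above the median signal the shared median was 0.81. Whether same replicate numbers pair the arrays is not settled, as the deviations of same-numbered arrays correlated at 0.45, -0.04 and 0.44. The main fit did not use these numbers. With them as a replicate block 7340 probe sets were called, and 8099 when the block was instead the array sets of the second component, an alternative chosen after seeing the data. PSG calls were 12 of 16 with either block, with a probe set of PSG9 gained. Among the lists, regulators had 2 calls above the median signal, without trend and with array weights, 3 with either block, and 0 to 2 without single arrays. Binding partners had 5 with either block and 1 to 3 without single arrays. Genes of DNA methylation and histone silencing had 3 with the replicate block, 2 with array weights or the sets, and 0 to 1 without single arrays. Neighbours had 1 to 2 without single arrays. Of 250 PSG differences recomputed 246 kept their sign; the others were of probe sets near 0, PSG11 206570_s_at (0.012 with the sets, up to 0.033 without single arrays), PSG6 239910_at (up to 0.03) and the shared 1568999_at (up to 0.01). Signs also turned for other genes near 0 that were not called, CEACAM3 (-0.0019 with quantile normalization, -0.0065 with median centring, -0.0038 with the sets, -0.0071 to 0.03 without single arrays), ID1 (-0.005 with median centring, -0.076 with the sets, -0.076 to 0.13 without single arrays), TGFBR1 (0.03 with quantile normalization, 0.05 with array weights, -0.085 to 0.073 without single arrays), PGF (-0.083 to 0.028 without single arrays) and PEA15 (0.0014 with the sets). The causes were not tested. Without detection calls, signal over background limits what dim probe sets show.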

Other observations

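The PSG11 probe set 206570_s_at held the same deposited value, 8.293, in S116D 1, S116D 2 and S116A 1. Only 7 of the 54613 probe sets held one value in 3 or more arrays, 6 in 3 arrays and 1 in 4.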
